A study of Mus musculus with 12 samples.

Results

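The genes described here encode the proteins of the cytosolic ribosome. They were chosen by name: rows of the count table whose symbol has the form Rpl or Rps and a number, with or without a closing a, x or l, and the rows Rplp0, Rplp1, Rplp2 and Rpsa, where the row was protein coding and held at least 120 counts over the 12 libraries. Of 43322 genes in the table, 83 had such a name, 82 of these were protein coding, and 79 passed the minimum, 48 of the large and 31 of the small subunit. The 3 protein-coding rows under the minimum were Rpl3l with 44 counts, Rpl10l with 17.6 and Rpl39l with 5, and Rps4l, with 1295 counts, is annotated as a transcribed pseudogene. All 79 members were among the 17077 genes that passed the filter on low counts. They lie on 19 chromosomes, 14 of them on chromosome 7 and 4 on the X chromosome.

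Poly-A RNA was sequenced from cultured cortical glial cells of wild-type CD1 mice at postnatal days 3 to 5, which the submitters label as primary astrocytes. The cells grew with epidermal growth factor, were split once and were used 3 to 7 days later. Each of the 3 groups had 4 libraries: 3 µM thapsigargin for 60 min, calcium-free medium with EGTA for 60 min, and vehicle control. Thapsigargin blocks the SERCA pumps that load calcium into the endoplasmic reticulum, and EGTA is a chelator that binds the calcium outside the cell. The labels describe each preparation as made from the cortices of 1 mouse and do not say which libraries share a mouse, so p-values measure the spread between these libraries.

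A ribosome joins a small subunit, which reads the messenger RNA, to a large subunit, which links amino acids. Each subunit is built from ribosomal RNA and ribosomal proteins, and with a few exceptions a ribosome holds 1 copy of each protein. In mammals the messenger RNAs of ribosomal proteins start with a C followed by a run of C and T (written T in DNA), the 5′ terminal oligopyrimidine or TOP motif, through which growth signals acting on mTOR control their translation. The messenger RNAs are abundant and long lived in growing cells. Stress that halts ribosome assembly frees some of the proteins, of which RPL5 and RPL11 bind MDM2, an inhibitor of p53.

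The run of C and T around the start site is the sequence feature for which the family is known, so promoter windows are shown for the 4 members with the most negative and the 4 with the least negative change under thapsigargin among those that had a single window. The windows come from RefSeq (GRCm38.p6) and cover 40 bases before to 20 bases after the annotated start. They are written 5′ to 3′ on the strand of the gene, and capitals mark runs of 8 or more C or T. A run in capitals can go on beyond the window. The first 4 are those with the most negative change: Rpl24 at chr16:55966235-55966294 (+ strand), Rpl7a at chr2:26910767-26910826 (+), Rpl11 at chr4:136053374-136053433 (- strand) and Rps15 at chr10:80292391-80292450 (+). The last 4 are those with the least negative change: Rps12 at chr10:23787190-23787249 (-), Rps16 at chr7:28350649-28350708 (+), Rpl28 at chr7:4792925-4792984 (+) and Rpl14 at chr9:120571477-120571536 (+).
Rpl24: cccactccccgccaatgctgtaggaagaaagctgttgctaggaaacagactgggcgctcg
Rpl7a: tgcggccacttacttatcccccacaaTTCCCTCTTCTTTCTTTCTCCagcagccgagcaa
Rpl11: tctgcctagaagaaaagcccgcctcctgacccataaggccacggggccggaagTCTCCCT
Rps15: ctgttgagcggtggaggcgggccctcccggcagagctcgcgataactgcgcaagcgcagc
Rps12: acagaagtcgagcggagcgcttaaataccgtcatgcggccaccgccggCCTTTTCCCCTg
Rps16: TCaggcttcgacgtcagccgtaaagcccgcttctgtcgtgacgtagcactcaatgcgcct
Rpl28: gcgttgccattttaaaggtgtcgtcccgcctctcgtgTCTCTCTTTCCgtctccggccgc
Rpl14: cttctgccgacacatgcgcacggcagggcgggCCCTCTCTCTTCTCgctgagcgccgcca

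A run of at least 8 C or T on the strand of the gene, touching the 25 bases on either side of the start, was present in 2 of the 4 windows with the most negative change and in 3 of the 4 with the least. The longest were the 21 bases of Rpl7a and the 17 of Rpl11, most of which lies beyond the window shown. The capitals at the left end of the Rps16 window belong to a run outside those 25 bases.

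Of the 79 members, 58 had a window of 300 bases (250 before to 50 after the start) in the RefSeq table, 69 windows in all, since some genes have more than 1 start. The C and T run was in 40 of the 69 windows, or 58%, against 24.1% of all 32851 windows. The letters CGGAAG, the core bound by ETS factors such as GABPA, were on either strand in 43 windows, or 62.3%, against 16.9% of all windows. TATAA was between 40 and 15 bases before the start, on the strand of the gene, in 4 windows, or 5.8%, against 3.52% of all windows. On the opposite strand CGGAAG reads CTTCCG, whose first letters are C and T only, so a match to it can overlap a C and T run. Windows of 1 gene can overlap, and a match describes letters in the window and no site in use.

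Library totals ran from 36.19 to 42.57 M counts. The 10 astrocyte markers (among them Slc1a3, Gfap and Aqp4) were detected in every library and summed to 5705 to 6904 CPM (counts scaled to 1 M per library, with TMM library sizes) in thapsigargin libraries, 6717 to 7860 CPM in calcium-free libraries and 6521 to 7742 CPM in control libraries. Replicate 4 stood apart in every group. It held 588 to 740 CPM of Xist, against at most 0.319 CPM in replicates 1 to 3, and under 0.215 CPM summed over Ddx3y, Eif2s3y, Kdm5d and Uty, against 198 to 221 CPM, so these libraries came from cells of the other sex. The 7 vascular and fibroblast markers summed to 84.2 to 112 CPM in replicate 4 and to 580 to 704 CPM in the others. The difference was mainly that of Col1a1, which ran from 53.5 to 656 CPM over the 12 libraries. Pdgfrb lay at 21.2 to 37.7 CPM and Kdr at 5.68 to 9.29 CPM. Dcn, Pecam1 and Lum were at 1.11 CPM or less, and Cldn5 was at or near 0 in all 12. The 8 proliferation markers summed to 1984 to 2098 CPM in replicate 4 and to 1552 to 1735 CPM in the others. In every group replicate 4 also had the lowest sum of astrocyte, microglia and neuron markers and the highest sum of oligodendrocyte lineage markers. The astrocyte sum was 5705 CPM in thapsigargin replicate 4 (others 6289 to 6904), 6717 CPM in calcium-free (7406 to 7860) and 6521 CPM in control (7574 to 7742). In bulk RNA, fewer cells of a type and less RNA per cell cannot be told apart.

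Together the members took 1.77%, 1.68%, 1.70% and 1.94% of all counts in thapsigargin replicates 1 to 4. In calcium-free libraries the shares were 1.85%, 1.84%, 1.76% and 2.05%, and in control libraries 1.85%, 1.85%, 1.89% and 2.09%. Replicate 4 had the highest share in each group, so the groups overlapped, but within each replicate number the thapsigargin library had the lowest share of the 3. The mean share was 1.77% ± 0.118 with thapsigargin, 1.88% ± 0.120 without calcium and 1.92% ± 0.112 in controls (SD, n = 4 each).

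**Figure D1:**
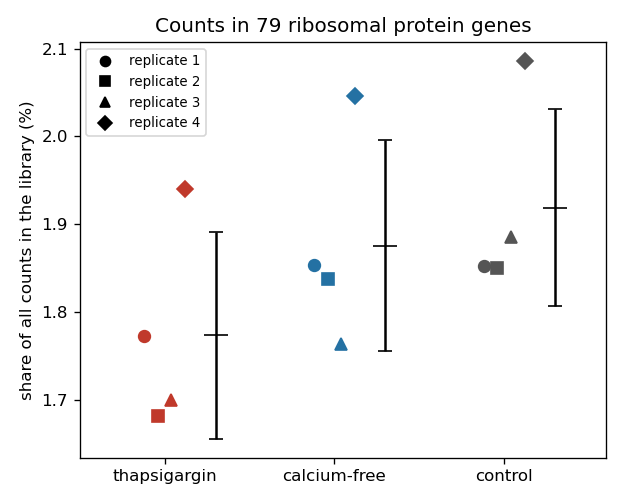
Share of all counts of a library (%) that fell in the 79 ribosomal protein genes, by group from thapsigargin to control. Symbols are the 4 libraries of a group and the bar is the mean ± SD (n = 4). Replicate 4 is highest in every group, and the axis does not start at 0.

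Part of the family was lower with thapsigargin, by a small amount. Of the 79 members, 43 fell against control and 0 rose, at an adjusted p under 0.05 in edgeR's quasi-likelihood test with Benjamini-Hochberg adjustment over all 17077 genes. In the same comparison 14.8% of all genes were called lower and 16.4% higher. All 79 fitted changes were negative. The median log2 fold change was -0.18, a decrease of 11.4%, beside a median of -0.05 over all genes tested, and the members ran from -0.40 to -0.09. An unadjusted p under 0.05 was reached by 56 members, all lower. The share of all genes at this p was not taken. It cannot be below the 14.8% lower and 16.4% higher given above, so this count is not read further.

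Markers of cell types are given here for the same comparison, in which 14.8% of all genes were called lower and 16.4% higher. The 9 microglia markers summed to 61.3 to 92.2 CPM with thapsigargin, 72.3 to 105 CPM without calcium and 78.1 to 128 CPM in controls, and within replicates 1 to 3 the thapsigargin sums were all below the control sums. Of these 9 markers, 2 fell against control and 0 rose, with a median log2 fold change of -0.43. The 7 neuron markers summed to 147 to 175 CPM with thapsigargin, 192 to 215 CPM without calcium and 179.9 to 208 CPM in controls, mostly Stmn2, while Rbfox3 and Slc17a7 were at or near 0 in all 12 libraries. Of the 5 neuron markers tested, 1 fell and 1 rose. The 7 oligodendrocyte lineage markers summed to 1467 to 1822 CPM with thapsigargin, 1587 to 1905 CPM without calcium and 1568 to 1719 CPM in controls, mostly Olig1, while Mog was at or near 0. Of the 6 oligodendrocyte lineage markers tested, 1 rose and 0 fell. Of the 6 vascular and fibroblast markers tested, 0 were called, and of the 8 proliferation markers 1 fell and 0 rose. Of the 10 astrocyte markers, 3 fell and 1 rose. The part of these markers in the result was not tested.

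The 4 thapsigargin libraries were all below the 4 control libraries in 33 members, and 15.1% of all genes tested had this pattern. Within replicate numbers the thapsigargin library was below the control library in all 4 pairs in 78 members, Rpl41 being the exception, and 34.4% of all genes had this pattern. With the replicate number as a block, the fit called all 79 members lower, and 28.2% of all genes. The labels name no shared source for equal numbers, so the pairs and the block rest on the numbers alone. Without replicate 4 in any group it called 72 lower, and 21.2% of all genes. The 7 members not called then were Rpl32l, Rpl35a, Rpl41, Rpl35, Rpl32, Rpl17 and Rpl14. The number called was 24 without thapsigargin replicate 2 or 3, where 11.2% of all genes were called lower in either fit. It was 28 without control replicate 4, with 15.8% of all genes, and 70 without thapsigargin replicate 4, with 15.5%. Of the 43 called members, 23 were called in all 12 fits that left out 1 library.

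**Figure D2:**
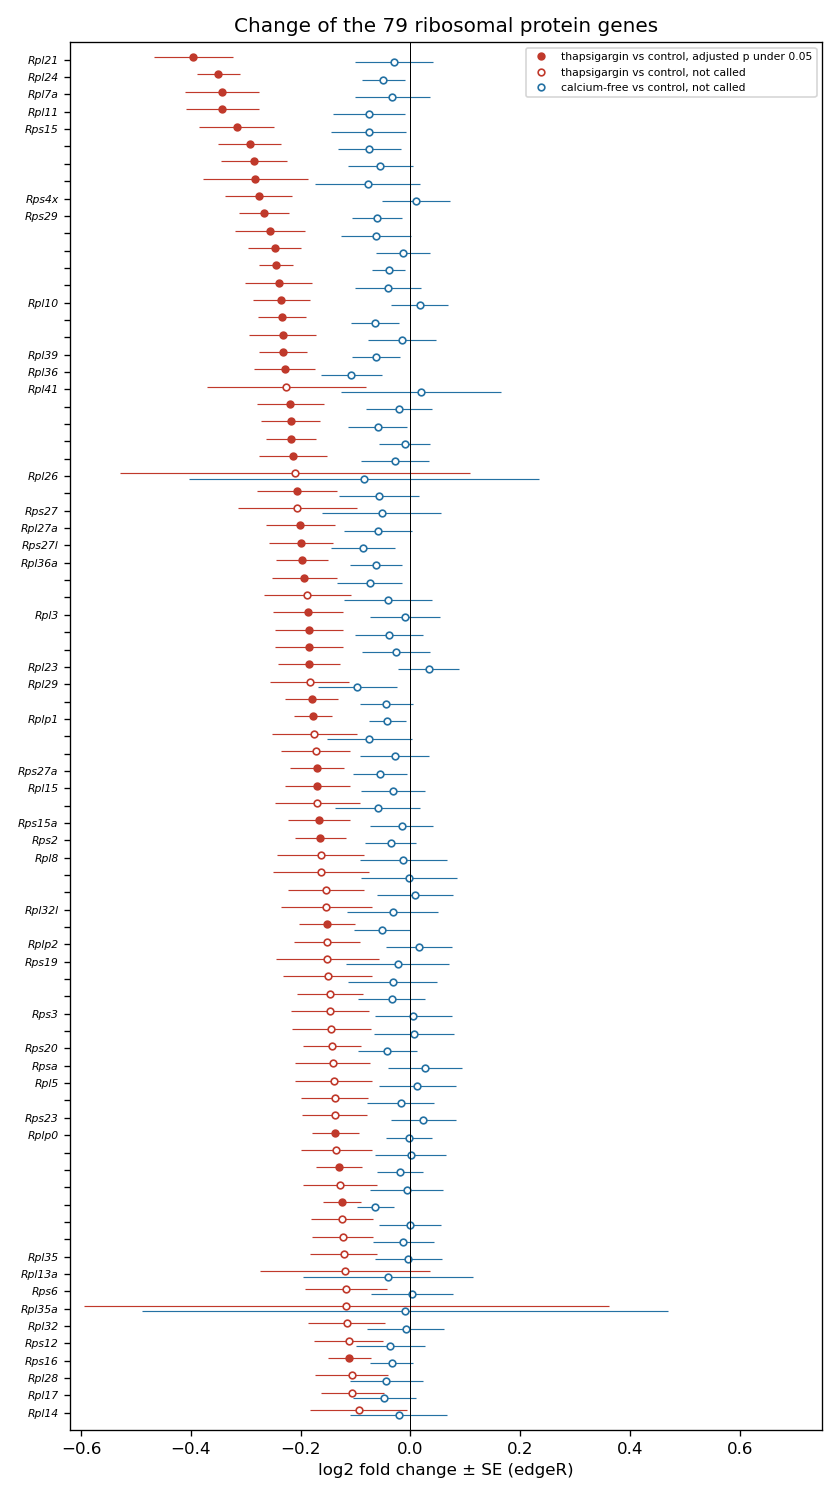
Log2 fold change against control, with its standard error, of each of the 79 ribosomal protein genes, with thapsigargin in red and without calcium in blue. Filled circles mark an adjusted p under 0.05. Members described in the text are named on the axis. All thapsigargin values lie below 0, from -0.40 for Rpl21 to -0.09 for Rpl14, and no calcium-free value is called.

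The large and the small subunit moved alike in these counts: 26 of 48 large-subunit members and 17 of 31 small-subunit members fell, each with a median log2 fold change of -0.18. The 2 medians correspond to decreases of 11.4% each. Members that hold small nucleolar RNA (snoRNA) genes within their bounds, 29 members with 57 such genes, had a median of -0.15 with 12 called lower. The 50 without one had a median of -0.18 with 31 called lower. Among all genes tested 2.62% hold a snoRNA gene, so the family is rich in hosts.

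Rpl21, a large-subunit protein gene (chromosome 5, 146769955 to 146773842 in GRCm39, which holds 2 snoRNA genes), had the most negative change. It had 207, 197, 195 and 235 CPM in thapsigargin replicates 1 to 4, 252, 257, 272 and 294 CPM in calcium-free libraries and 269, 259, 267 and 303 CPM in control libraries. All thapsigargin libraries lay below all others. Against control its log2 fold change was -0.40 ± 0.07 (SE), a decrease of 24.0% with an adjusted p of 0.00113 in edgeR.

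Rpl24 encodes a large-subunit protein at the interface with the small subunit, and a mutation in it causes the mouse Belly spot and tail phenotype. It had 117, 111, 114 and 121 CPM with thapsigargin, 139, 144, 139 and 148 CPM without calcium and 145, 144, 146 and 154 CPM in controls. The thapsigargin libraries were again below all 8 others, and replicate 4 lay close to its group. The log2 fold change against control was -0.35 ± 0.04 with the lowest adjusted p of the family, 3.54e-05 in edgeR.

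Rpl11, whose protein binds MDM2 as part of the particle with 5S ribosomal RNA, had 232, 220.3, 217 and 255 CPM with thapsigargin, 272, 273, 257 and 312 CPM without calcium and 285, 285, 290.1 and 313 CPM in controls. No thapsigargin library reached a control library (log2 fold change -0.34 ± 0.07, edgeR adjusted p = 0.00181). Rpl5, its partner in that particle, had 289, 282, 288 and 335 CPM with thapsigargin, 325, 323, 314 and 364 CPM without calcium and 321, 316, 311 and 367 CPM in controls. Here thapsigargin replicate 4 lay above control replicates 1 to 3, and the change of -0.14 ± 0.07 did not pass the test (edgeR adjusted p = 0.164).

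Rpl7a, a large-subunit gene that holds 4 snoRNA genes, had 305, 279.7, 279.8 and 328 CPM with thapsigargin, 358, 353, 354 and 415 CPM without calcium and 371, 368, 365 and 409 CPM in controls. All thapsigargin libraries were below all control libraries (log2 fold change -0.34 ± 0.07, edgeR adjusted p = 0.00204). Rps15, whose small-subunit protein lies near the decoding site, had 268, 245, 247 and 286 CPM with thapsigargin, 296, 296, 293 and 349.7 CPM without calcium and 313, 311, 338 and 341 CPM in controls. Its groups did not overlap either (log2 fold change -0.32 ± 0.07, edgeR adjusted p = 0.0037).

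At the other end, the least negative changes belonged to Rpl14, Rpl17, Rpl28, Rps16 and Rps12. Rpl14 had 235, 222, 229 and 280.3 CPM with thapsigargin, 246, 251, 239.8 and 281 CPM without calcium and 249.9, 243, 239.5 and 299.7 CPM in controls. The groups overlapped through replicate 4, and the change of -0.09 ± 0.09 was not called (edgeR adjusted p = 0.47). Rps16, whose protein reaches the decoding region, was called with the smallest change among called members, -0.11 ± 0.04 (edgeR adjusted p = 0.0487). It had 172, 165, 171 and 183 CPM with thapsigargin, 181, 185, 179 and 185 CPM without calcium and 183, 184, 183 and 196 CPM in controls. Its call held in 1 of the 12 fits that left out 1 library, and with the replicate block and the trend over exon length removed it was called higher, at 0.06 ± 0.03 (edgeR adjusted p = 0.0458).

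The stalk of the large subunit, which recruits the elongation factors, is built from the proteins of Rplp0, Rplp1 and Rplp2. Rplp1 had 412, 389.7, 398 and 423 CPM with thapsigargin, 437, 448, 444 and 454 CPM without calcium and 465, 449, 457 and 465 CPM in controls, with no overlap between thapsigargin and control. It fell by 0.18 on the log2 scale (SE 0.03, edgeR adjusted p = 0.00167), but with the trend over exon length removed it was at 0.02 ± 0.03 (edgeR adjusted p = 0.748). Rplp0 fell by 0.14 (edgeR adjusted p = 0.0276), and Rplp2, at -0.15 ± 0.06, did not pass (edgeR adjusted p = 0.0757).

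On the small subunit, Rps3 at the messenger RNA entry channel changed by -0.15 ± 0.07 (edgeR adjusted p = 0.142) and Rps6, the substrate of the S6 kinases, by -0.12 ± 0.07 (edgeR adjusted p = 0.27). Neither passed the test. Rpsa, also known as the laminin receptor, changed by -0.14 ± 0.07 and Rps19, which is mutated in human Diamond-Blackfan anaemia, by -0.15 ± 0.09, both with an edgeR adjusted p above 0.05 (0.141 and 0.262). Rps29, the member with the shortest exons, fell by 0.27 (SE 0.05, edgeR adjusted p = 0.000774). Rps27a, whose product is made as a fusion with ubiquitin, fell by 0.17 (edgeR adjusted p = 0.0191). With the trend over exon length removed, Rps29 at -0.06 and Rps27a at -0.02 were not called.

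Several members have a close relative in the same list. Rps27 and Rps27l, a relative known as a p53 target, changed by -0.21 ± 0.11 and -0.20 ± 0.06, and the second was called (edgeR adjusted p = 0.182 and 0.0209). Rpl3, whose protein reaches the peptidyl transferase centre, fell by 0.19 (edgeR adjusted p = 0.0418), while its muscle relative Rpl3l held at most 7 counts in a library. The 4 X-linked members all fell: Rps4x by 0.28, Rpl10 by 0.24, Rpl39 at the exit tunnel by 0.23 and Rpl36a by 0.20, with edgeR adjusted p between 0.00148 and 0.00754. With the trend over exon length removed Rps4x stayed called. Rpl10, Rpl39 and Rpl36a, then at -0.08, -0.03 and -0.007, were not called, nor was Rpl3 at -0.10. Reads of a ribosomal protein gene can also match its processed pseudogenes. The 33 rows named as pseudogenes of the family, 15 of them annotated as protein coding, held 1.76% as many counts as the members. Of the 79 members, 60 had values that were not whole in every library.

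In calcium-free medium the family showed no called change. Of the 79 members, 0 fell and 0 rose against control in edgeR, 0 reached an unadjusted p under 0.05, and DESeq2 also called 0. Among all genes, 1.55% were called lower and 3.78% higher in this comparison. The members' median log2 fold change was -0.03, beside -0.01 over all genes, and the range was from -0.11 for Rpl36 to 0.03 for Rpl23. With the replicate number as a block the count was again 0 lower and 0 higher. With the trend over exon length removed the median was 0.02 and 20 members were negative, against 66 before, with 0 called. With the block as well, 4 members were called higher, at 0.08 to 0.09: Rpl10, Rpl23, Rps23 and Rplp2. In that fit 10.1% of all genes were called higher.

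Rpl36, a large-subunit gene, had 116, 117, 108 and 124 CPM without calcium and 120.3, 122, 129.6 and 129 CPM in controls, with an overlap between the groups (edgeR adjusted p = 0.357). Rpl23, whose protein like that of Rpl11 can bind MDM2, had 283, 280.1, 278 and 304 CPM without calcium and 274, 271, 265 and 309 CPM in controls, also overlapping (edgeR adjusted p = 0.887). The calcium-free libraries lay wholly below the controls in 1 member, against 4.44% of all genes. Without replicate 4, 1 member was called lower, where 5.16% of all genes were, Rpl26 with a log2 fold change of -0.09 ± 0.03 (edgeR adjusted p = 0.0451). The comparison with control shares its 4 control libraries with the thapsigargin comparison.

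The direct comparison of thapsigargin with calcium-free medium tests the difference between the treatments. Here 24 members fell and 0 rose, and 13.2% of all genes were called lower and 14.6% higher. All 24 were also among the 43 lower against control, a comparison that shares the thapsigargin libraries. The median was -0.15, beside -0.02 over all genes. The libraries did not overlap in 24 members, against 13.4% of all genes. The count was 73 with the replicate block, where 26.9% of all genes were called lower, and 62 without replicate 4, where 19.4% were. Rpl21 had the most negative value, -0.36 ± 0.07 (edgeR adjusted p = 0.00254), before Rpl7a at -0.31 ± 0.07 and Rpl24 at -0.30 ± 0.04 (edgeR adjusted p = 0.00481 and 0.000183). Rps4x, the X-linked small-subunit gene, had 391, 357, 366 and 415 CPM with thapsigargin, 439, 454, 466 and 506 CPM without calcium and 447, 446, 453 and 506 CPM in controls. It differed from the calcium-free group by -0.29 ± 0.06 (edgeR adjusted p = 0.00442), with no overlap.

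The members are short genes, and the median change with thapsigargin was more negative in shorter genes. The summed exon length of the members was 322 to 5136 nt with a median of 839 nt, against a median of 3616 nt over the other genes tested. Among genes of up to 1000 nt, the 49 members had a median log2 fold change of -0.19 and the 1365 other genes one of -0.18. From 1000 to 2000 nt the medians were -0.16 for 23 members and -0.12 for 2686 other genes, and from 2000 to 5000 nt they were -0.16 for 6 members and -0.05 for 7262 other genes. Most members lie in the shortest band, where their median and that of the other genes differed by the least.

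**Figure D3:**
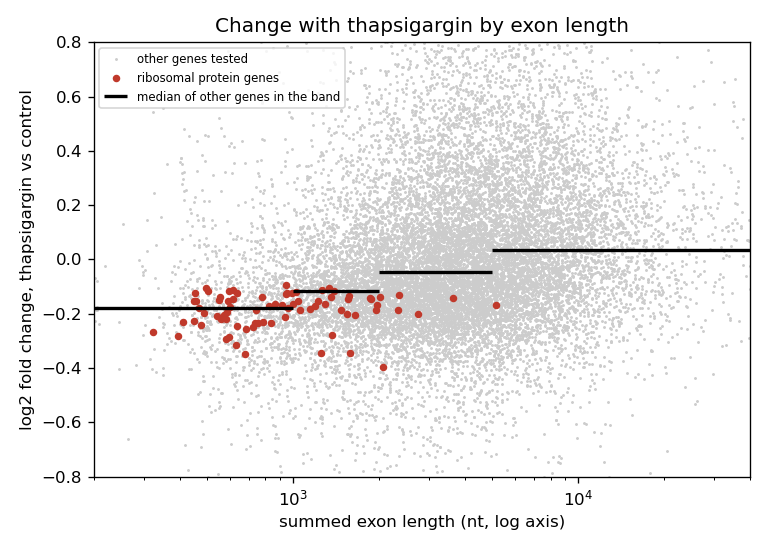
Log2 fold change of thapsigargin against control by summed exon length (nt, log axis) for the 79 ribosomal protein genes in red and all other genes tested in grey. Black lines are the medians of the other genes in 4 length bands. Points beyond 0.8 in either direction are not drawn. In the shortest band the median of the other genes is -0.18, and that of the 49 members there is -0.19.

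With the trend of the change over exon length taken out, 8 members were called lower against control, while 13.2% of all genes were, and the members' median of -0.04 stood beside -0.04 over all genes. These 8 were Rpl21, Rpl11, Rpl7a, Rps15a, Rps27l, Rpl24, Rps4x and Rps20, with log2 fold changes from -0.35 to -0.16. Negative values remained in 59 of the 79 members. With both the block and the length trend, 29 were called lower, against 26.5% of all genes, and 4 higher, against 21.7%: Rps16, Rpl35, Rpl32 and Rpl28, at 0.06 to 0.08. Against calcium-free medium, 9 were lower without the length trend, where 13.7% of all genes were, and 40 with the block as well, where 27.2% were. The scaling of the libraries also moved the count of 43 against control. It was 36 with RLE factors, where 12.9% of all genes were called lower, 59 with upper quartile factors, where 19% were, and 16 with plain library totals, where 7.5% were. Against calcium-free medium it was 7 with library totals, where 5.7% of all genes were called lower. All 79 fitted values against control remained negative under these 3 and under TMM factors from all other genes. Higher calls were 52.5% of all calls over all genes with TMM factors and 73.7% with library totals. For calcium-free medium against control, TMM scaling gave 70.9% and the upper quartile 58.5%. For thapsigargin against calcium-free medium they were 52.5% with TMM factors and 78.0% with library totals, under which 73 of the 79 members had negative fitted values, against 79 with TMM factors.

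Scaling each library to the family's own total asks which members moved away from the family. On that scale the median over all genes in the thapsigargin comparison with control was 0.14, and that of the members 0.01. It set 5 members apart, all lower: Rpl21 at -0.21 ± 0.04, Rpl24 and Rpl7a at -0.16 ± 0.04, Rpl11 at -0.16 ± 0.03 and Rps15 at -0.13 ± 0.04 (edgeR adjusted p from 0.00124 to 0.0224), where 1.46% of all genes were called lower. Against calcium-free medium, 5 members were set apart, all lower, where 1.36% of all genes were: Rpl21, Rpl7a, Rpl24, Rps4x and Rpl11. On this scale 5150 of the 17077 genes tested were called higher against control and 4708 against calcium-free medium. The adjustment ran over all genes tested, and so many calls make the adjusted p of a member smaller. Calcium-free medium against control set 0 apart, with 0 members at an unadjusted p under 0.05 in edgeR, the one tool run on this scale. Rpl21 stood lowest in both comparisons with thapsigargin on this scale. With the replicate block, 10 members were set apart lower and 5 higher against control, where 4.82% of all genes were called lower and 44.1% higher. Against calcium-free medium the block set 6 apart lower and 7 higher, where 5.26% of all genes were called lower and 42.6% higher.

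Levels between members were compared per length, as CPM per kb of summed exon length. In controls Rplp1 was highest at 981 ± 15.9 CPM per kb, before Rps29 at 675 ± 30.8, Rpl8 at 613 ± 41.7, Rplp2 at 597 ± 30.5 and Rpl41 at 580.2 ± 118 (SD, n = 4). The proteins of Rplp1 and Rplp2 are the exception to 1 copy per ribosome. The lowest were Rpl32l at 18.5 ± 0.849 CPM per kb, Rps27l at 31.7 ± 1.89, Rpl29 at 32.7 ± 2.77, Rps15a at 45.1 ± 2.25 and Rpl35a at 47.2 ± 27.2. The highest and lowest differed 53.1-fold, or 72.8-fold in CPM without dividing by length.

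**Figure D4:**
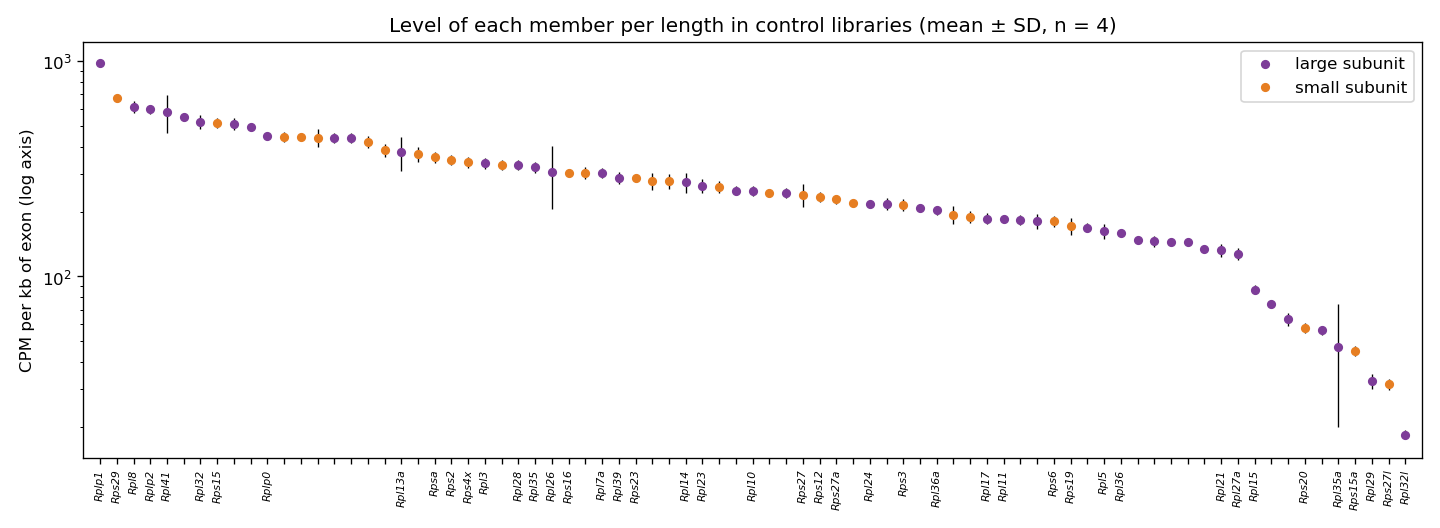
Level of each member in control libraries, in CPM per kb of summed exon length on a log axis, ordered from high to low, as mean ± SD (n = 4), with the large subunit in purple and the small subunit in orange. Members described in the text are named on the axis. Rplp1 is highest at 981 and Rpl32l lowest at 18.5 CPM per kb. Rpl26 and Rpl35a have the widest error bars relative to their means.

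Of the 78 neighbouring pairs in this order, 9 were further apart than the sum of their SDs, among them Rplp1 above Rps29, Rpl27a above Rpl15 and Rps27l above Rpl32l. The other 69 neighbours did not differ beyond their spread. The summed exon length joins the exons of all annotated transcripts, and it was 5136 nt for Rps15a and 2748 nt for Rps27l, so the level per length of such members is a lower estimate. The coefficient of variation within groups had a median of 6.3% over members, and 2 members were above 20%, Rpl35a and Rpl26.

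Replicate 4 was higher than the mean of replicates 1 to 3 in most members of every group. The median ratio was 1.14 with thapsigargin, 1.12 without calcium and 1.11 in controls, beside 1.03, 1.00 and 1.01 over all genes tested. It was above 1 in all 3 groups in 75 members and below 1 in all 3 groups in 2 members, Rpl26 and Rps2. The 4 X-linked members had medians of 1.09, 1.06 and 1.12 in the same order of groups, within the range of the others. The sex of the cells and the sums of every marker list differ between replicate 4 and the others as given above. Their part in these ratios was not tested.

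Rpl35a, a large-subunit gene mutated in some patients with Diamond-Blackfan anaemia (chromosome 16, 32876823 to 32880559 in GRCm39), had 18.7, 16.8, 18.7 and 50.0 CPM in thapsigargin replicates 1 to 4. It had 20.0, 19.5, 18.2 and 54.4 CPM without calcium and 20.2, 19.6, 20.4 and 52.6 CPM in controls. Replicate 4 was 2.77, 2.83 and 2.62 times the mean of the other 3 in these groups.

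Rpl26, whose protein binds p53 messenger RNA (chromosome 11, 68792392 to 68795360), went the other way, with 169, 164, 161 and 78.7 CPM with thapsigargin, 181, 182, 177 and 83.9 CPM without calcium and 193, 188, 195 and 85.5 CPM in controls. Replicate 4 was at 0.478, 0.466 and 0.444 times the mean of the others. For both genes replicate 4 lay outside the other 3 libraries in every group. Rpl13a, known in human cells for a role outside the ribosome in silencing inflammatory messenger RNAs, had 335, 314, 316 and 456 CPM with thapsigargin, 347, 353, 330.1 and 471 CPM without calcium and 343, 355, 356 and 491 CPM in controls. In these 3 genes the standard errors of the treatment effects were wide for the family, 0.48, 0.32 and 0.15 on the log2 scale.

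Without replicate 4, Rpl26 was called lower with thapsigargin at -0.18 ± 0.03 and Rpl13a at -0.09 ± 0.03 (edgeR adjusted p = 7.24e-05 and 0.0461), while Rpl35a at -0.11 ± 0.06 was not (edgeR adjusted p = 0.12). Rpl41, which encodes the shortest of the ribosomal proteins, had 219, 202, 220.3 and 250.3 CPM with thapsigargin, 254, 230.0, 236 and 336 CPM without calcium and 213, 233, 261 and 334 CPM in controls. Its thapsigargin and control libraries overlapped, and its change of -0.23 ± 0.15 was not called (edgeR adjusted p = 0.281).

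**Figure D5:**
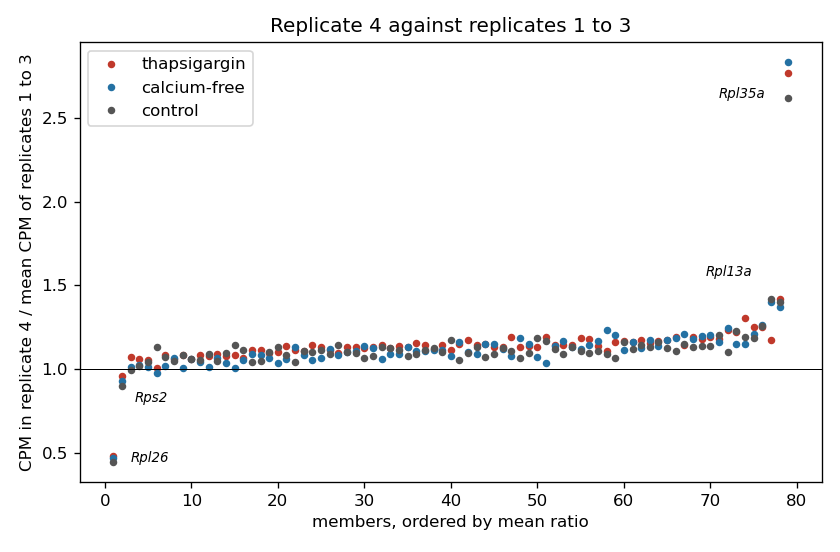
Ratio of CPM in replicate 4 to the mean CPM of replicates 1 to 3 for each of the 79 members, ordered by the mean ratio, in thapsigargin, calcium-free and control libraries. The line marks a ratio of 1. Rpl26 lies between 0.444 and 0.478 and Rpl35a between 2.62 and 2.83, and the medians are 1.11 to 1.14.

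The lists that follow are read beside the same background: 16.4% of all genes were called higher and 14.8% lower with thapsigargin against control, and 3.78% and 1.55% in calcium-free medium against control. No list was counted with the trend over exon length removed. With thapsigargin against control, genes outside the family had medians of -0.18 up to 1000 nt and -0.12 from 1000 to 2000 nt. Of 7 ribosomal protein genes whose names do not have the form used above, 5 fell with thapsigargin against control and 0 rose, with a median log2 fold change of -0.19. Fau, which encodes RPS30 fused to a ubiquitin-like protein, averaged 117 ± 9.95 CPM with thapsigargin, 132 ± 8.67 CPM without calcium and 143 ± 7.62 CPM in controls (log2 fold change against control -0.29 ± 0.07, edgeR adjusted p = 0.00534). Rpl36al, Rpl22l1 and Rps3a1 fell by 0.24, 0.22 and 0.17. Rack1 and Rpl7l1 did not pass the test. Calcium-free medium against control called 0 of the 7.

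Of 17 elongation factors and other genes known for TOP messenger RNAs, 8 fell with thapsigargin and 0 rose, with a median of -0.14. Eef1a1, the elongation factor that delivers transfer RNA, averaged 3470.5 ± 206 CPM with thapsigargin, 4009 ± 245 CPM without calcium and 3989.5 ± 188 CPM in controls, a log2 fold change of -0.20 ± 0.06 against control (edgeR adjusted p = 0.0153). Naca and Btf3, the 2 partners of the complex that meets new chains at the ribosome, fell by 0.29 and 0.21. Eef2, which moves the ribosome along, was at -0.09 ± 0.07 and was not called (edgeR adjusted p = 0.358). Calcium-free medium called 0 of the 17.

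The list of 16 genes for RNA polymerase I and ribosomal DNA transcription also holds Znhit6, an assembly factor of snoRNA particles. Of these 16 genes, 8 rose and 1 fell with thapsigargin, with a median log2 fold change of 0.21. Taf1a, a subunit of the promoter selectivity factor, averaged 17.2 ± 1.87 CPM with thapsigargin, 8.62 ± 0.853 CPM without calcium and 8.48 ± 1.49 CPM in controls, which is a log2 fold change of 1.02 ± 0.12 against control (edgeR adjusted p = 5.38e-05). Taf1d, of the same factor, rose by 0.96, Ttf1, the transcription terminator, by 0.51 and Rrn3, the initiation factor, by 0.33, while Polr1h, a polymerase subunit, fell by 0.24. In calcium-free medium 1 of the 16 was called, Rrn3, higher by 0.18 (edgeR adjusted p = 0.0235).

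Of 50 ribosome assembly factors, 14 rose and 4 fell with thapsigargin, with a median of 0.07, beside 16.4% of all genes higher and 14.8% lower. Nmd3, the export adaptor of the large subunit, averaged 41.3 ± 3.02 CPM with thapsigargin, 31.8 ± 0.840 CPM without calcium and 26.4 ± 1.28 CPM in controls. It rose in both treatments, by 0.64 ± 0.06 with thapsigargin and by 0.27 ± 0.06 without calcium (edgeR adjusted p = 4.84e-06 and 0.0169). Tsr1, which acts on the small subunit, rose by 0.51 with thapsigargin, and Nop16, a nucleolar protein, fell by 0.50. Nmd3 was the 1 assembly factor called in calcium-free medium.

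Of 18 regulators of TOP messenger RNAs and ribosomal protein synthesis, 6 rose and 4 fell with thapsigargin, with a median of 0.00, beside the same shares of all genes. Mdm2, the p53 inhibitor that free RPL5 and RPL11 bind, averaged 67.3 ± 2.49 CPM with thapsigargin, 42.2 ± 3.75 CPM without calcium and 35.0 ± 1.67 CPM in controls. It rose by 0.94 ± 0.06 with thapsigargin (edgeR adjusted p = 7.82e-07). Myc, a transcription factor that drives ribosome synthesis, averaged 29.0 ± 1.26 CPM with thapsigargin, 19.02 ± 1.02 CPM without calcium and 15.7 ± 1.13 CPM in controls, and rose by 0.89 ± 0.06 (edgeR adjusted p = 1.04e-06). Tsc1, which restrains mTOR, rose by 0.52, and Eif4ebp2, a translation repressor that mTOR phosphorylates, fell by 0.53. Larp1 and Larp4, RNA-binding proteins of which the first binds the TOP motif, rose by 0.15 and 0.27 with thapsigargin and by 0.19 and 0.27 without calcium. In calcium-free medium, where 3.78% of all genes were called higher and 1.55% lower, 4 of the 18 rose and 1 fell, Rps6kb2, an S6 kinase gene, by 0.35.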

How the data were processed

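The authors deposited expected counts (estimated counts per gene), made, per the submitters' processing notes, with featureCounts 1.6.4, STAR 2.7.2b, cutadapt 1.17 and bcl2fastq 2.20.0.422 on GRCm39. Options and strand setting were not stated in the material used. Between 14.2% and 15.9% of the values per library were not whole (tolerance 1e-06), and all were rounded. Reads carry no molecular identifiers, so precision is that of counting.

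Each setting was 1 fit over the whole table: edgeR 4.0.16 (R 4.3.3), TMM, default filter at a minimum count of 10, robust quasi-likelihood test with 1 mean per group, and Benjamini-Hochberg adjustment per contrast over the 17077 genes tested, at a threshold of 0.05. The fits were run on simulated counts with known fold changes. These counts held no shift of replicate 4, no pairing and no length trend, so they do not test how the fits handle those. Alternatives were DESeq2 1.42.0, other scalings, a loess over log exon length (span 0.5), the replicate block, no count filter and libraries left out. Members, gene lists and markers were chosen with earlier results of these data known, so no test over a list is given. Named were the 5 highest and 5 lowest changes per contrast and levels, paralogues, and stalk, X-linked and extraribosomal members. Members that changed calls or stood apart in replicate 4, and genes picked from the lists, were chosen after their values were seen.

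Groups share replicate numbers. Across genes, deviations from the group means correlated for each same-numbered pair (r from 0.219 to 0.907, with replicate 4 at 0.891 or above). Replicate 4 stood apart in every group, which alone makes such deviations correlate, so these values cannot show that the numbers pair libraries. The pairs and the block were formed by number all the same. Among replicates 1 to 3, same-numbered pairs lay at 0.219 to 0.586 and differently numbered pairs at 0.339 to 0.588. The group means hold replicate 4, whose shift enters all of these values, so they cannot show whether the numbers pair libraries. The labels name no shared source for any number. No pair of replicate libraries agreed within sampling noise (chi-square per degree of freedom at least 1.66).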

Additional observations from a re-analysis of the deposited data

Results flagged for a closer look

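In 129 groups of 4 libraries (42 named members and the family's share, in 3 groups each), 34 held 1 library whose gap to its nearest neighbour exceeded Dixon's critical share of the group's range, and 33 of these were replicate 4. Chance alone flags about 1 group in 20, and values of 1 library are not independent. The exception was Rps29 in calcium-free replicate 1, at 203 CPM with the others at 209 to 210 CPM.

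With thapsigargin, replicate 4 was apart at 456 CPM for Rpl13a, 78.7 CPM for Rpl26, 50.0 CPM for Rpl35a and 335 CPM for Rpl5. The other thapsigargin libraries reached at most 335 CPM for Rpl13a, lay at 161 to 169 CPM for Rpl26, reached 18.7 CPM for Rpl35a and reached 289 CPM for Rpl5.

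In calcium-free medium, replicate 4 was apart for large-subunit members at 471 CPM for Rpl13a, 304 CPM for Rpl23, 83.9 CPM for Rpl26, 54.4 CPM for Rpl35a, 415 CPM for Rpl7a and 599 CPM for Rpl8. Among small-subunit members it was apart at 350 CPM for Rps15, 201 CPM for Rps19, 157 CPM for Rps27, 80.7 CPM for Rps28, 285 CPM for Rps6 and 758 CPM for Rpsa.

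In controls, the family's share of counts in replicate 4 was 2.09%, with the others at 1.85% to 1.89%. Large-subunit members apart in control replicate 4 were Rpl10 at 204 CPM, Rpl13a at 491 CPM, Rpl17 at 269 CPM, Rpl22 at 187 CPM, Rpl26 at 85.5 CPM, Rpl28 at 176 CPM, Rpl35a at 52.6 CPM, Rpl39 at 130.0 CPM, Rpl5 at 367 CPM, Rpl7a at 409 CPM, Rpl8 at 581 CPM and Rplp2 at 294 CPM. Small-subunit members were Rps16 at 196 CPM, Rps27l at 94.9 CPM, Rps4x at 506 CPM and Rpsa at 725 CPM. In the libraries named here replicate 4 was below the others for Rpl26 and above them for every other member.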

How the results depend on the processing

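In the comparison of thapsigargin with control, the count of members called lower (43) became 79 with the replicate block, 8 with the length trend removed, 16 with library totals and 23 with no count filter, and lay between 24 and 72 with libraries left out. With no count filter 1456 of 29089 genes were called lower, and the shares for the other settings are given above. The block with the length trend removed gave 4 members higher. The median of -0.18 became -0.038 with the length trend removed and -0.037 with the block as well, and lay between -0.23 and -0.13 with libraries left out. In calcium-free medium against control, the block with the length trend removed gave 4 higher, the median of -0.03 became 0.023 with the length trend removed, alone or with the block, and lay between -0.075 and 0.0074 with libraries left out, when 0 or 1 member was called lower. For thapsigargin against calcium-free medium, the count of 24 became 73 with the block, 9 with the length trend removed, 40 with both, 7 with library totals and 15 with no count filter, and lay between 16 and 62 with libraries left out. Its median of -0.15 became -0.068 with the length trend removed, with both, and with library totals. In this comparison 1247 of 29089 genes were called lower with no count filter. Without thapsigargin replicate 2, which gave the 16 members, 1664 of 17213 genes were.

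On the scale of the family total, 5 members were called with thapsigargin against control. This count became 15 with the replicate block (5 higher), 8 with the length trend removed and 32 with both (4 higher). Of all 17077 genes, 2224 were called lower with the length trend removed, and 4438 lower and 3734 higher with both. With libraries left out the count of members lay between 4 and 9. It was 4 without thapsigargin replicate 2, where 213 of 17213 genes were called lower. Without replicate 4 it was 9 (1 higher), where 610 of 17004 genes were called lower and 6894 higher. The 5 against calcium-free medium became 13 with the block (7 higher), 9 with the length trend removed, 38 with both, 3 to 7 with libraries left out and 2 with no count filter. There 2283 of 17077 genes were called lower with the length trend removed, 4594 with both, and 175 of 29089 with no count filter. The 0 in calcium-free medium against control became 4 with both, all higher, where 1732 of 17077 genes were called higher. Removing the length trend moved the median over all genes, thapsigargin against control, from 0.138 to -0.034 on this scale. With TMM factors and the length trend removed it was -0.036. The counts with the length trend removed, alone or with the block, therefore do not show members set apart from the family total. The ratio of the highest to the lowest level was 72.8 without length division. Leaving out libraries moved the family share by less than its SD, between 1.72% and 1.80% with thapsigargin, 1.82% and 1.91% without calcium and 1.86% and 1.94% in controls. With the length trend removed, alone or with the block, the change with thapsigargin against control turned positive in 20 of 79 members. Of the 43 called lower these were Rpl10a (0.012), Rplp1 (0.016) and Rps16 (0.065). Rpl28, not called at first, was at 0.082 with the length trend removed and at 0.081, called higher, with both. The cause of these shifts was not tested. The length of the transcripts in use was not measured.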
